A study of Rattus norvegicus with 4 samples.

Results

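The genes described here encode the proteins that copy DNA in S phase. They were chosen by symbol from a list of 57, each represented by its brightest probe set (the probe set with the highest mean intensity over all 4 arrays among those annotated to a single gene symbol). Of the 57 genes, 49 were measured, among 12922 genes in all, and Orc3, Cdc6, Cdc7, Dbf4, Gins2, Pole2, Rrm2 and Chaf1b were not analysed here. RNA came from smooth muscle cells of the rat aorta, which contract the vessel wall. Every culture started at 10000 cells per cm2, spent 24 h in medium with 10% fetal bovine serum and was then kept for 72 h without serum or insulin. For the last 3 h, cells of the PDGF-BB group received platelet-derived growth factor BB at 30 ng/mL, and cells of the vehicle group received 0.2% bovine serum albumin in 10 mM acetic acid. Each group had 2 Affymetrix arrays. The strain, age and passage of the cells are not stated in the labels. The labels also do not say that replicate arrays were separate cultures, so each p-value reflects array-to-array spread alone, and that spread may be technical.

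DNA replication is prepared in G1, when the origin recognition complex, Cdc6 and Cdt1 load the MCM helicase onto origins, a step called licensing that geminin (Gmnn) blocks by binding Cdt1. At the start of S phase the kinase Cdc7 with Dbf4, together with cyclin-dependent kinases, brings Cdc45 and the GINS complex to the helicase, after which polymerase alpha-primase starts each strand and polymerases delta and epsilon extend it on the sliding clamp Pcna. Many of these genes are targets of E2F transcription factors and are known to rise in late G1, hours after a resting smooth muscle cell meets a mitogen such as PDGF-BB.

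The median intensity of all tested probe sets was 145 and 148 with vehicle, 144 for PDGF-BB replicate 1 and 132 for PDGF-BB replicate 2. For the 49 replication genes the medians were 354 and 351 with vehicle and 341 and 300 with PDGF-BB. The highest intensity of 27 Bacillus control probe sets, 80.3, served as a guide to background. By that guide Orc1 and Brca1 were at background in both groups, and the group means of Mcm10, Pold1 and Brca2 were above it in vehicle and below it with PDGF-BB, although Pold1 and Brca2 read 85.0 and 86.1 on PDGF-BB replicate 1. The smooth muscle genes Acta2, Tagln and Cnn1 read 9597 to 11946 on the 4 arrays. Of 8 measured smooth muscle markers, Lmod1 (-1.70), Smtn (-0.79) and Myh11 (-0.70) were lower with PDGF-BB on the log2 scale used below. The other 5 missed the threshold: Myocd (0.39), Cnn1 (0.26), Des (0.17), Tagln (0.02) and Acta2 (-0.10). PDGF-BB arrays both lay above both vehicle arrays for Myocd and Cnn1, and below both for Acta2. The part of these markers in the results was not tested. Of 6 endothelial marker genes 4 were measured, all at background in both groups. Of 6 leukocyte markers, Ptprc, Cd68, Csf1r and Itgam were at background, Aif1 read 79.7 to 95.3 and Cd14 1126 to 1473. Of 4 fibroblast markers, Col1a1 read 10447 to 11932, Lum 79.0 to 109, Pdgfra 76.1 to 86.8 and Dcn 17.0 to 31.9. Both PDGF-BB arrays lay below both vehicle arrays for Lum (-0.35), Dcn (-0.31) and Col1a1 (-0.14), which missed the threshold, and their part in the results was not tested. The arrays measure RNA in bulk, so fewer cells that carry a transcript and less of it per cell cannot be told apart.

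Replication genes were lower after 3 h of PDGF-BB, and few were higher. Of the 49 measured, 20 were lower, 1 was higher and 28 missed an adjusted p of 0.05 by limma with Benjamini-Hochberg adjustment over all probe sets. In all genes, 15.3% were lower and 12.4% were higher by the same rule. The median log2 fold change, PDGF-BB minus vehicle on the log2(intensity + 16) scale, was -0.38 for the replication genes and -0.03 for all genes. It ranged from -1.16 for Pola2 to 0.59 for Gmnn, so most changes were below 2-fold. Both PDGF-BB arrays lay below both vehicle arrays in 36 of the 49 genes, or 73.5%, and in 37.8% of all genes. They lay above both in 5, or 10.2%, and in 29.7% of all genes. Among other genes with a mean log2(intensity + 16) of 7 to 9, 52.1% lay below and 26.0% above. From 9 to 11, 44.7% lay below and 37.2% above. The calls rested on all 4 arrays. Without vehicle replicate 1 or without vehicle replicate 2, limma called 0 replication genes lower (19 and 18 at an unadjusted p under 0.05) and only 2.32% and 2.50% of all genes. Without PDGF-BB replicate 1 it called 16 lower, and without PDGF-BB replicate 2 it called 6. The fold change of all 20 genes stayed below 0 in each of the 14 alternative analyses. For each of the 20, both PDGF-BB arrays lay below both vehicle arrays. Leaving out 1 array or changing the offset could therefore not turn the sign. Limma-trend, the replicate block and the filter on dim probe sets leave the fold change as it was. Only rescaling between arrays or another choice of probe set could turn it.

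**Figure D1:**
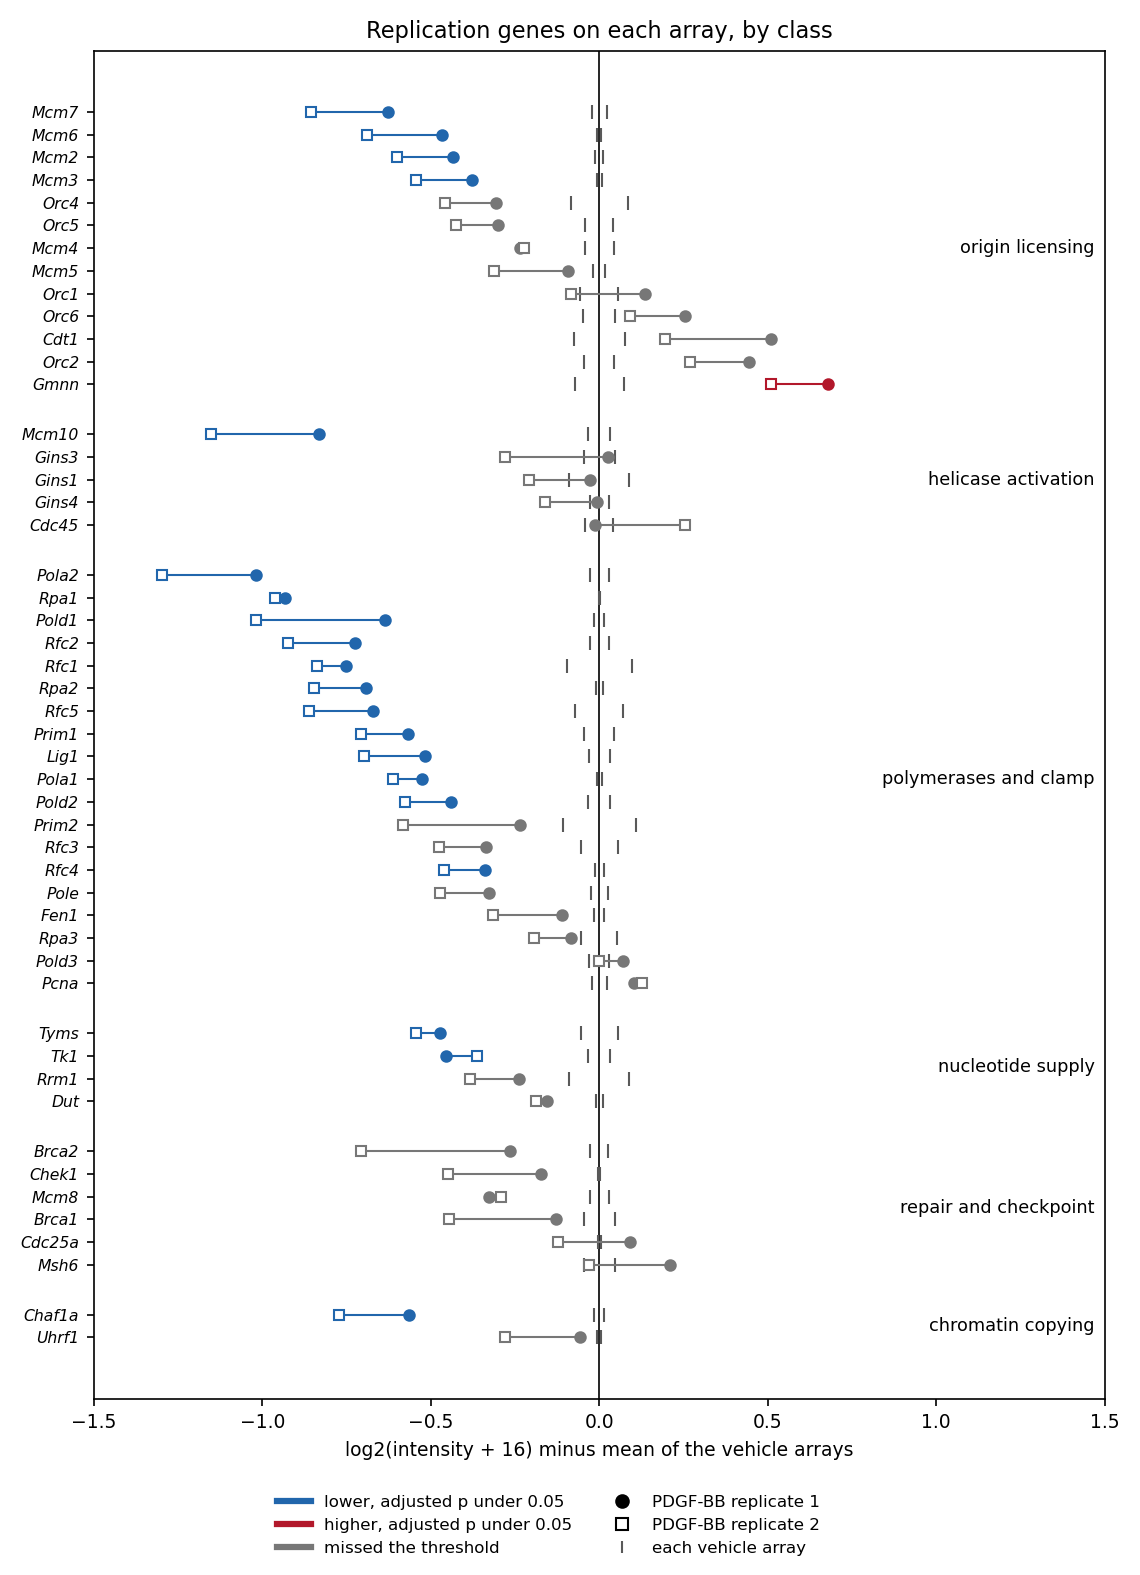
Change of each of the 49 replication genes on each array: log2(intensity + 16) minus the mean of the vehicle arrays (x axis), by gene and class (y axis), with filled circles for PDGF-BB replicate 1, open squares for PDGF-BB replicate 2 and ticks for the vehicle arrays. The 20 genes in blue passed the threshold as lower and Gmnn, in red, as higher. The lower genes are densest among polymerases and clamp, 12 of 19.

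To show the start regions of these genes, their promoters were taken from RefSeq on the GRCr8 assembly, as windows from 250 bases before to 50 bases after each start. Of the 49 genes, 44 had a window, and Gins4, Mcm4, Orc1, Orc4 and Rpa3 had none. E2F words (TTTCGCGC, TTTGGCGC, TTTCCCGC or TTTGCCGC, on either strand, overlapping words counted separately) were found in 22 of the 44 genes and in 3.73% of the 10655 measured genes with a window. The NF-Y word CCAAT was found in 27 of 44 replication genes, or 61.4%, and in 38.8% of measured genes. The cell cycle words TTTGAA or TTCGAA were found in 6 of 44, or 13.6%, and in 14.6% of measured genes. A match is a description of letters and not a site that was shown to be bound. A missing match shows only that none of the words searched was there, since other E2F-like words were not searched.

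The stretches below are shown because all 5 MCM helicase genes with a window held an E2F word, and 4 of these 5 genes were lower with PDGF-BB. Each is 120 bases long and ends before the start, written 5′ to 3′ on the gene's strand, with E2F words and CCAAT words in capitals. Mcm3, which was lower and held 2 E2F words in its window, is not shown. In Mcm2, Mcm5 and Mcm6, E2F words on the opposite strands overlap. In Mcm7 an E2F word runs into a CCAAT word. These stretches are chr4:122918095-122918214 (minus strand) for Mcm2, chr19:13488600-13488719 (plus) for Mcm5, chr13:42404372-42404491 (minus) for Mcm6 and chr12:22163199-22163318 (minus) for Mcm7.
Mcm2: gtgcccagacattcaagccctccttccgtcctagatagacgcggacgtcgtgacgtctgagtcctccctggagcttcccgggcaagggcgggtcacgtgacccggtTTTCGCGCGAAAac
Mcm5: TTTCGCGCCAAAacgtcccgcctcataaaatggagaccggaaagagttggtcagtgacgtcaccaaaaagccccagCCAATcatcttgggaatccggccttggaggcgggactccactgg
Mcm6: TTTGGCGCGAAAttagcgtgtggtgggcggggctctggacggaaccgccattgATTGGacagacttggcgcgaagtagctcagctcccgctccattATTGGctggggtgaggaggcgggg
Mcm7: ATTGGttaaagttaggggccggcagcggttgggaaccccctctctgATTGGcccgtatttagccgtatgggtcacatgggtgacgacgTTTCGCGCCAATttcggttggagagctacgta

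A second group is shown because it sets genes with and without the word beside their change. Gins1 (chr3:160184800-160184919, plus strand) and Tyms (chr9:120776084-120776203, minus strand) held an E2F word, and Tyms was lower while Gins1 missed the threshold. Rpa1 (chr10:60698280-60698399, minus strand) and Pola2 (chr1:212680543-212680662, minus strand) were among the genes with the largest decreases, and none of the 4 E2F words was found in their windows. The Pola2 stretch does hold tttggcgg, which differs from the searched word TTTGGCGC in its last letter. Gmnn (chr17:40729714-40729833, plus strand), the gene that was higher, held an E2F word after its start, outside the stretch shown.
Gins1: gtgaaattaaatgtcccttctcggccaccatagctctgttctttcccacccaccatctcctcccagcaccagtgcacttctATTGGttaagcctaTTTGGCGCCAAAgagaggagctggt
Tyms: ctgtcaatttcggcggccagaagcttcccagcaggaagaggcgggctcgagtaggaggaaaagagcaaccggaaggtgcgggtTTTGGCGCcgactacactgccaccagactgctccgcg
Rpa1: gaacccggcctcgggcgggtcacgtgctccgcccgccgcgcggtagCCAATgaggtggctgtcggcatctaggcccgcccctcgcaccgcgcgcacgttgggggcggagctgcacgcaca
Pola2: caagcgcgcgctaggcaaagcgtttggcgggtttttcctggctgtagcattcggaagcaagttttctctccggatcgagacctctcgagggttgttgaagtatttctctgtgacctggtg
Gmnn: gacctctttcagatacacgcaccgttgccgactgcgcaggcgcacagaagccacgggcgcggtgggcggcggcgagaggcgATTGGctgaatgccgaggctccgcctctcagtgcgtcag

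Lower genes were found both with and without the E2F word. Of the 22 replication genes with the word, 8 were lower, 1 was higher and 13 missed the threshold, with a median log2 fold change of -0.34. Of the 22 with a window and no word, 12 were lower and 10 missed it, with a median of -0.45. This difference was not tested. For Mcm10 and Pold1, both lower and without the word, the only window lay inside the annotated gene. It did not lie at the gene's outer 5′ end (chr17:78172049 for Mcm10, chr1:104178074 for Pold1), which was not searched. By class, the word was found in 8 of 10 origin licensing genes and in 6 of 18 genes of the polymerase and clamp class, the class with the most lower calls.

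In origin licensing 4 of 13 measured genes were lower, or 30.8%, all of them MCM subunits, and 1 was higher. Of all genes 15.3% were lower, and of other genes with a mean log2(intensity + 16) of 7 to 9, 27.0% were. The MCM helicase genes were lower on every PDGF-BB array: for all 6 subunits both PDGF-BB arrays lay below both vehicle arrays, and 4 of the 6 passed the threshold. With an offset of 1 in place of 16 only Mcm7 stayed called, and without PDGF-BB replicate 2, or without either vehicle array, no MCM2-7 gene was. Mcm7, a subunit of the helicase ring that unwinds DNA, read 1085 and 1051 with vehicle and 685 and 583 with PDGF-BB. It fell by 0.74 on the log2 scale (SE 0.12, limma adjusted p 0.0163). Mcm6 read 559 and 554 with vehicle and 398 and 339 with PDGF-BB, a fall to 67.0% of vehicle on the log2(intensity + 16) scale (log2 fold change -0.58, SE 0.11, limma adjusted p 0.0288). Mcm2 read 481 and 490, then 355 and 315 (-0.52, SE 0.10, limma adjusted p 0.0296). The changes of these subunits were several times the gap between the vehicle arrays, but the PDGF-BB arrays lay further apart. For Mcm7, Mcm6 and Mcm2, replicate 2 minus replicate 1 was -0.05, -0.01 and 0.02 (log2) with vehicle. With PDGF-BB it was -0.23, -0.22 and -0.17. Mcm3 read 271 and 268, then 204 and 180 (-0.46, SE 0.10, limma adjusted p 0.0387). Mcm4 read 1055 and 993 with vehicle and 868 and 874 with PDGF-BB and missed the threshold (-0.23, SE 0.09, limma adjusted p 0.144). Mcm5, whose promoter stretch is shown above, also missed it, with a log2 fold change of -0.20 and a 95% interval from -0.50 to 0.10.

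The origin recognition complex, which marks origins and recruits the helicase loader, showed no call among 5 measured subunits (limma, 2 lower and 1 higher at an unadjusted p under 0.05). Its subunits differed in direction. Orc2 read 564 and 602 with vehicle and 798 and 705 with PDGF-BB, both PDGF-BB arrays above both vehicle arrays (0.36, SE 0.11, limma adjusted p 0.0818). Orc4 read 472 and 533, then 403 and 361, both below (-0.38, SE 0.11, limma adjusted p 0.0793). These calls depended on the processing, since Orc2 passed as higher in 6 and Orc4 as lower in 4 of 14 alternatives. Orc5 resembled Orc4, with a log2 fold change of -0.36. Orc6 was at 0.17 and Orc1, at background, at 0.03.

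The licensing inhibitor moved against most of the list. Gmnn, geminin, read 226 and 252 with vehicle and 392 and 346 with PDGF-BB, and rose by 0.59 (SE 0.11, limma adjusted p 0.0268), a level 151% of vehicle on the log2(intensity + 16) scale. Its call was lost whichever of the 4 arrays was left out (limma adjusted p up to 0.172) and with an offset of 1 in place of 16. Cdt1, the loading factor that geminin binds, read 125 and 141 with vehicle and 196 and 154 with PDGF-BB. Its PDGF-BB arrays were both above the vehicle arrays but far apart (0.35, SE 0.14, limma adjusted p 0.159).

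**Figure D2:**
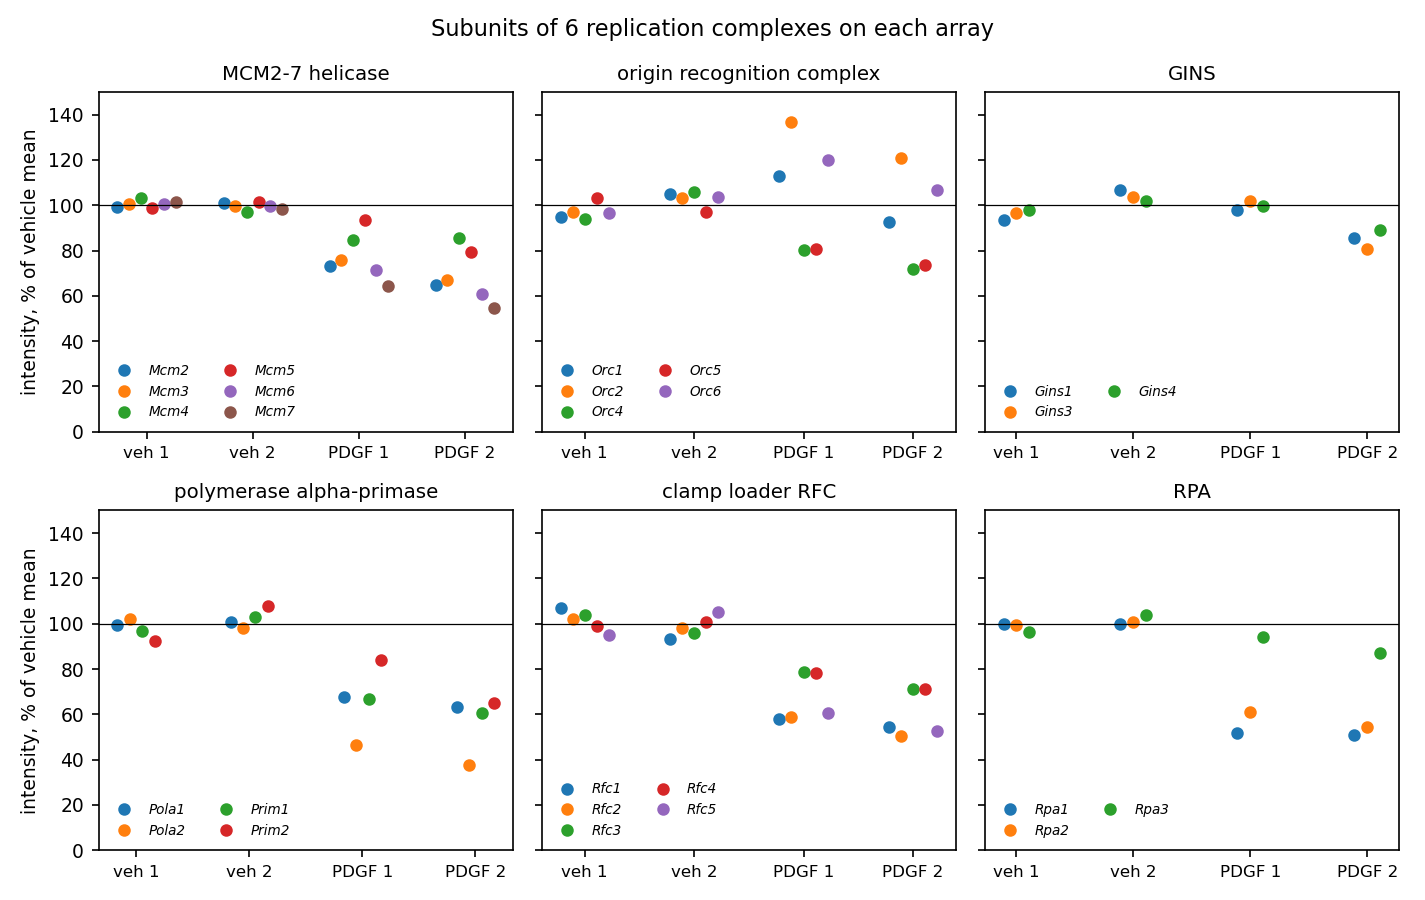
Intensity of each subunit as a percentage of its vehicle mean (y axis, from 0) on the vehicle arrays 1 and 2 and the PDGF-BB arrays 1 and 2 (x axis), for 6 complexes. All points of MCM2-7, polymerase alpha-primase, the clamp loader and RPA lie lower on both PDGF-BB arrays than on both vehicle arrays, while the origin recognition complex splits in both directions and GINS overlaps with vehicle on PDGF-BB replicate 1.

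Helicase activation genes changed little apart from Mcm10. Mcm10, which helps the assembled helicase to start unwinding, read 133 and 126 with vehicle and 65.8 and 49.5 with PDGF-BB, values below the background guide. It fell by 0.99 (SE 0.14, limma adjusted p 0.0126). The other 4 measured genes of this class missed the threshold. Gins4 read 456 and 475, then 463 and 414 (-0.08, SE 0.10, limma adjusted p 0.602). Gins1 read 245 and 279, then 256 and 224 (-0.12, SE 0.12, limma adjusted p 0.541). For both genes the groups overlapped, as they did for Gins3, and 0 of 3 GINS genes was called, also at an unadjusted p under 0.05 (limma). Their signs turned to 0.01 for Gins1 and Gins4 after cyclic loess normalization. The 95% intervals of the log2 fold change ran from -0.44 to 0.20 for Gins1 and from -0.35 to 0.19 for Gins4. Both reach the changes of Mcm4 (-0.23) and Mcm5 (-0.20), which missed the threshold. Neither reaches those of the 4 MCM2-7 genes called lower. The interval of Gins3, from -0.49 to 0.24, reaches that of Mcm3 (-0.46).

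Cdc45, the helicase cofactor recruited with GINS, read 236 and 251 with vehicle and 241 and 294 with PDGF-BB on its brightest probe set (0.12, SE 0.13, limma adjusted p 0.555). The 4 probe sets of Cdc45 disagreed. The brightest is of the x type, whose probes can match other transcripts, and 1 of the other 3 was lower, from 95.3 and 79.0 to 51.4 and 53.0 (-0.59, limma adjusted p 0.0282). The remaining probe sets were at -0.48, with both PDGF-BB arrays below both vehicle arrays, and at 0.04, and both missed the threshold. The direction of Cdc45 is therefore uncertain.

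Genes of the polymerases, the clamp loader and single-strand binding held most of the decreases. Of 19 measured, 12 were lower, 0 higher and 7 missed the threshold (0 higher also at an unadjusted p under 0.05), and the median log2 fold change was -0.57. In 17 of the 19 both PDGF-BB arrays lay below both vehicle arrays. Without PDGF-BB replicate 2, 5 of the 12 stayed called lower, and without PDGF-BB replicate 1 the fit called 9 of the class lower.

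Polymerase alpha-primase, which lays down the primers, was lower in 3 of 4 subunits. Pola2, its regulatory B subunit, showed the largest change of all replication genes. It read 291 and 279 with vehicle and 133 and 107 with PDGF-BB, and fell by 1.16 (SE 0.13, limma adjusted p 0.00721) to 44.8% of vehicle. Both PDGF-BB arrays were far below the lower vehicle array. The catalytic subunit Pola1 was at -0.57 and the primase subunit Prim1 at -0.64, both called lower. Prim2 missed the threshold at -0.41, with vehicle values of 286 and 334 and PDGF-BB values of 261 and 201. Of the delta polymerase, Pold1, the catalytic subunit, read 139 and 143, then 85.0 and 61.5 (-0.83, SE 0.15, limma adjusted p 0.0255), and Pold2 was at -0.51 and called. Pold3 was at 0.04 with overlapping groups. The catalytic subunit of polymerase epsilon, Pole, just missed at -0.40 (limma adjusted p 0.0512).

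The replication factor C clamp loader, which opens Pcna and sets it on DNA, was lower in 4 of 5 subunits. Rfc2 read 336 and 322 with vehicle and 193 and 166 with PDGF-BB (-0.82, SE 0.11, limma adjusted p 0.0112). Rfc1, the large subunit, read 539 and 469, then 292 and 274 (-0.79, SE 0.11, limma adjusted p 0.0123), and 2 of its 3 probe sets were called lower. Neither gene came near its vehicle range on a PDGF-BB array. Rfc5 and Rfc4 were called at -0.77 and -0.40. Rfc3 read 690 and 638, then 522 and 473, and missed the threshold (-0.41, SE 0.10, limma adjusted p 0.0550), though it passed in 5 of 14 alternatives.

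The clamp itself missed the threshold. Pcna read 2889 and 2980 with vehicle and 3153 and 3205 with PDGF-BB (0.12, SE 0.09, limma adjusted p 0.405), and its sign turned to -0.03 after quantile normalization. The 95% interval of its log2 fold change, from -0.12 to 0.35, does not reach the decreases of Rfc1 or Rfc2.

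Replication protein A, which coats single-stranded DNA, was lower in 2 of 3 subunits. Rpa1, the large subunit, gave the closest replicates of the larger decreases. It read 1281 and 1283 with vehicle and 664 and 650 with PDGF-BB, and fell by 0.95 (SE 0.08, limma adjusted p 0.00466) to 51.9% of vehicle. Without vehicle replicate 1 or 2 the highest adjusted p of Rpa1 was 0.0566. Rpa2 was called at -0.77. Rpa3, the small subunit, read 1000 and 1079, then 980 and 905, and missed the threshold (-0.14, SE 0.10, limma adjusted p 0.384). Of the Okazaki fragment enzymes, DNA ligase 1 (Lig1) was lower at -0.61, in 1 of its 2 probe sets, and the flap nuclease Fen1 missed at -0.21.

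Nucleotide supply genes were all lower on both PDGF-BB arrays than on both vehicle arrays, and 2 of 4 passed the threshold. Thymidylate synthase (Tyms), which makes thymidylate for DNA, read 130 and 142 with vehicle and 93.4 and 88.0 with PDGF-BB (-0.51, SE 0.10, limma adjusted p 0.0260). Thymidine kinase 1 (Tk1), the salvage enzyme, read 615 and 644, then 454 and 485 (-0.41, SE 0.09, limma adjusted p 0.0412), and 1 of its 2 probe sets was called. Both calls were lost in every leave-one-out fit and with a replicate block. Tk1 passed in 5 and Tyms in 9 of 14 alternatives. The large ribonucleotide reductase subunit Rrm1 read 1054 and 1194, then 949 and 855 (-0.31, SE 0.11, limma adjusted p 0.128). The dUTPase gene Dut read 1653 and 1629, then 1471 and 1438 (-0.17, SE 0.09, limma adjusted p 0.226). Rrm1 passed as lower in 3 alternatives and Dut in 1.

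Repair and checkpoint genes gave no call among 6 (limma, 0 lower, 2 at an unadjusted p under 0.05), and their median was -0.30. Msh6, of mismatch repair, read 625 and 585 with vehicle and 702 and 593 with PDGF-BB (0.09, SE 0.12, limma adjusted p 0.644). Chek1, the S-phase checkpoint kinase, read 416 and 417, then 368 and 301 (-0.31, SE 0.13, limma adjusted p 0.156). Cdc25a, the phosphatase that activates S-phase kinases, read 329 and 327, then 350 and 300, on either side of vehicle (-0.02, SE 0.11, limma adjusted p 0.934). In this class the PDGF-BB arrays lay apart: the median change was -0.15 on replicate 1 and -0.37 on replicate 2. Brca2 showed this most, with -0.27 and -0.71, and Brca1 and Mcm8 were at -0.29 and -0.31 without passing. Brca2 and Mcm8 were the 2 genes that passed as lower when only probe sets above the highest Bacillus control were tested.

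Of the genes that restore chromatin behind the fork, Chaf1a, the large subunit of chromatin assembly factor 1, read 151 and 155 with vehicle and 98.4 and 83.1 with PDGF-BB, and fell by 0.67 (SE 0.11, limma adjusted p 0.0189). Uhrf1, which guides maintenance DNA methylation, read 354 and 351, then 338 and 288, and missed the threshold (-0.17, SE 0.11, limma adjusted p 0.352).

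The PDGF-BB arrays differed in level over this list. Measured apart, the median change from the vehicle mean was -0.30 on PDGF-BB replicate 1 and -0.45 on PDGF-BB replicate 2. Replicate 2 read below replicate 1 in 44 of 49 genes, and in 70.9% of all genes. Other genes in the intensity bands that hold 42 of the 49 (given below) read lower on replicate 2 in 80.3% and 93.5% of cases, so the list's share, 89.8%, lay within that range. On replicate 1 alone 36 of the 49 genes lay below both vehicle arrays, and on replicate 2 alone 41 did, against 5800 and 6295 of all 12922 genes. The vehicle arrays differed by a median of 0.03 over the list. The part of this offset between the PDGF-BB arrays in the calls was not tested. The fits without 1 array, given above, cannot measure it, since they also lose residual degrees of freedom and leave 1 group with a single array. After cyclic loess normalization, which removes offsets that vary with intensity, the list's median was -0.28 with 21 lower calls, of which 19 were among the 20.

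**Figure D3:**
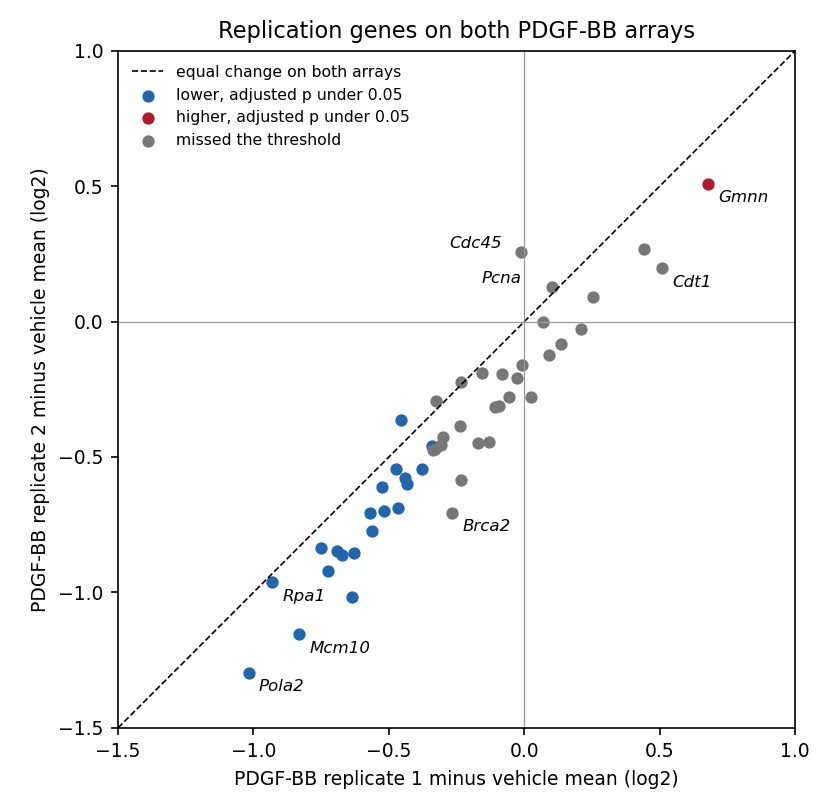
Change from the vehicle mean on PDGF-BB replicate 1 (x axis) and PDGF-BB replicate 2 (y axis), log2(intensity + 16), for the 49 replication genes, with a dashed line at equal change. In 44 genes the point lies below the line, so replicate 2 reads lower than replicate 1, and all 20 genes called lower are below 0 on both arrays.

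Genes of like intensity set a reference for the list. The 30 replication genes with a mean log2(intensity + 16) of 7 to 9 had a median change of -0.37 (log2), and 12, or 40.0%, were lower. Among the other 3359 genes of that band the median was -0.16, and 27.0% were lower and 12.7% higher. In the band from 9 to 11, 5 of 12 replication genes were lower with a median of -0.36, against 18.2% lower and 19.8% higher of 3598 other genes, whose median was -0.04. In the band below 7, 3 of 6 were lower. The 4583 other genes there are no like reference, since 3816 were at background in both groups. Pcna was the only gene above 11. Beside the genes within 0.25 log2 units of its own mean intensity, each replication gene had its own reference of 412 to 1085 genes. Of the 49, 35 lay below the median of their reference, 20 below its lower quartile and 3 above its upper quartile, which were Orc2, Cdt1 and Gmnn. The median distance from the reference median was -0.26, and it was -0.22 on PDGF-BB replicate 1 and -0.25 on replicate 2. In the polymerase and clamp class 17 of 19 were below their reference median and 11 below its lower quartile. In the helicase activation class 1 of 5, Mcm10, was below its reference median. In origin licensing 8 of 13 were below their reference median, 3 below its lower quartile and 3 above its upper quartile.

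**Figure D4:**
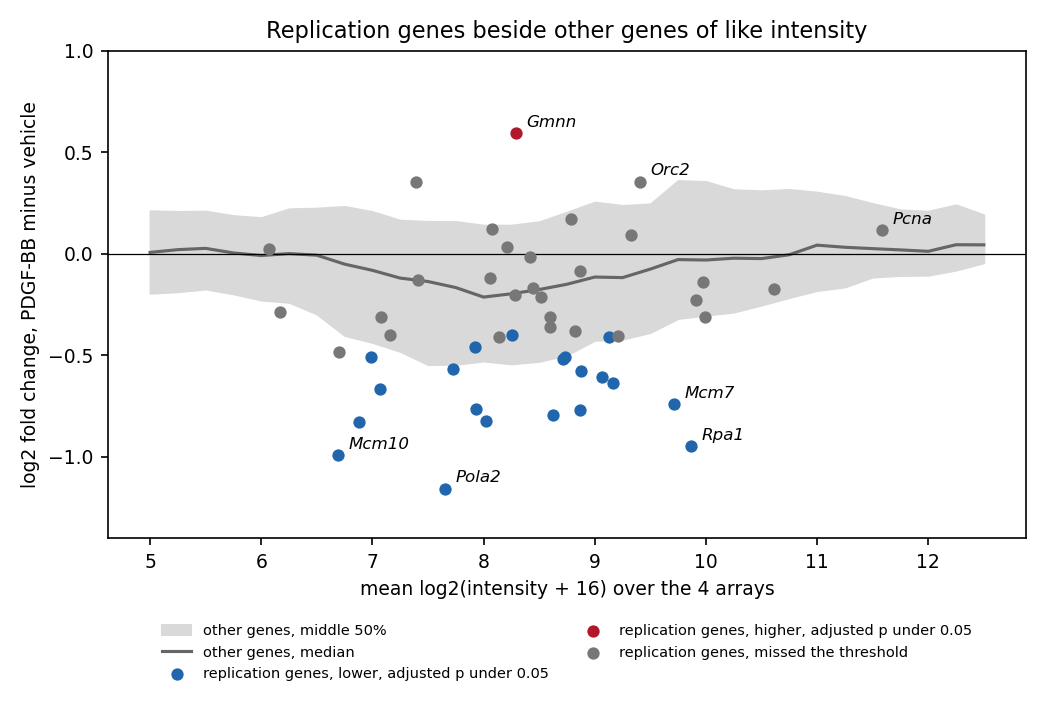
Log2 fold change, PDGF-BB minus vehicle (y axis), against mean log2(intensity + 16) over the 4 arrays (x axis), for the 49 replication genes over the median (line) and middle 50% (band) of all other genes within 0.25 log2 units. The reference medians of the 49 genes lie between -0.22 and 0.03, and 20 of the 49 points lie below the lower quartile of their reference.

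Partner genes of replication outside the list, 60 by symbol of which 42 were measured, were also tested. Of these 42, 15 were lower, or 35.7%, 1 was higher and 26 missed the threshold, with a median log2 fold change of -0.32. Of all genes 15.3% were lower and 12.4% higher. Timeless, of the fork protection complex, read 248 and 228 with vehicle and 70.5 and 68.5 with PDGF-BB, and fell by 1.57 (SE 0.09, limma adjusted p 0.00195). Its change was larger than that of any replication gene on the list and stayed called in all 14 alternatives. Atad5, which unloads Pcna, read 77.2 and 75.1, then 22.6 and 26.3 (-1.19, SE 0.10, limma adjusted p 0.00375), all below the background guide. Dtl, a substrate receptor for the destruction of Cdt1, read 374 and 380, then 188 and 189 (-0.94, SE 0.08, limma adjusted p 0.00470). The only partner that was higher was topoisomerase I (Top1), which read 1083 and 1217, then 2020 and 1664 (0.67, SE 0.14, limma adjusted p 0.0331), a call lost whichever array was left out. Of the other 14 replication partners, Topbp1 (-1.13), Dscc1 (-0.72) and Top2a (-0.50) were lower and 11 missed the threshold.

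Among S-phase chromatin partners, 3 of 7 were lower. These were Atad2 (-1.21), a bromodomain protein, and the histone chaperone genes Asf1a (-0.79) and Asf1b (-0.75). Of 7 nucleotide partners 2 were lower, the deoxycytidylate deaminase gene Dctd at 50.1% of vehicle and the deoxycytidine kinase gene Dck at a log2 fold change of -0.62. The median log2 fold change of the nucleotide partners was 0.06, and 3 of the 7 were below 0. Of 10 repair partners 4 were lower, and Blm (-0.74), Pms2 (-0.54) and Palb2 (-0.52) had the smallest p. In the 3 lists, in the order given, 42.9%, 28.6% and 40.0% were lower. The share was 15.3% of all genes and 27.0% of other genes of mean log2 intensity 7 to 9. None of these 3 lists had a gene called higher (limma, 0, 1 and 0 at an unadjusted p under 0.05 in the order given). Of the 8 genes named here, Palb2 lost its call in all 4 leave-one-out fits, Pms2 in 3 and the other 6 in 2.

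**Figure D5:**
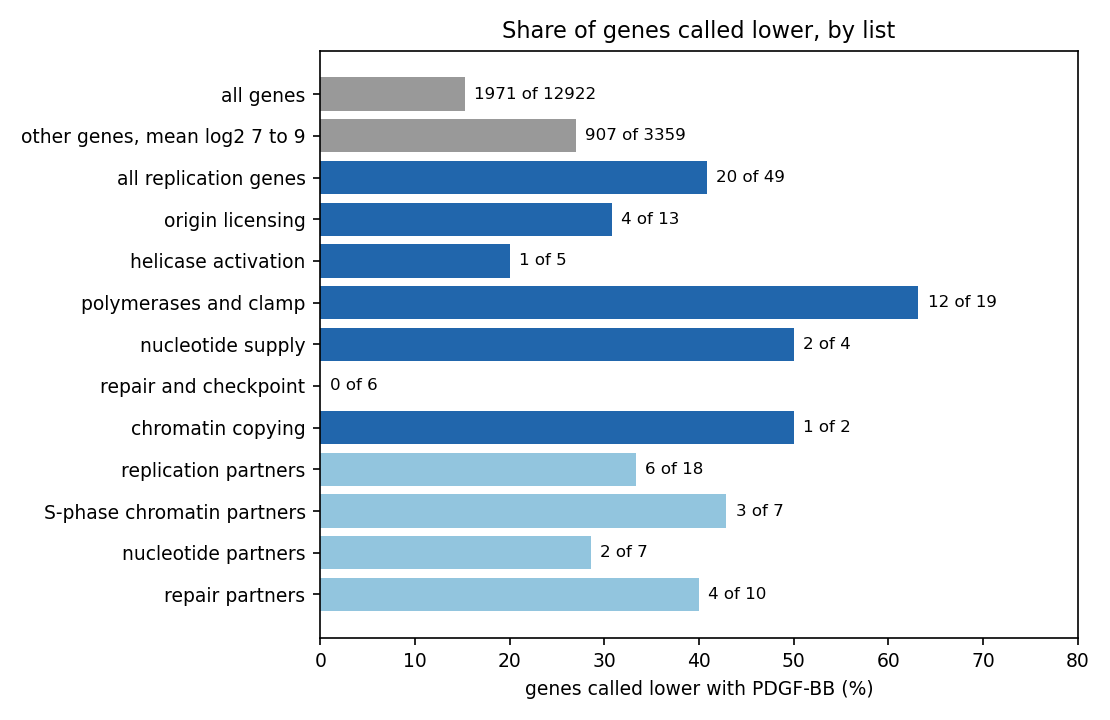
Share of genes called lower with PDGF-BB by limma at an adjusted p under 0.05 (x axis, from 0), for all genes and for other genes of mean log2 intensity 7 to 9 (grey), the replication genes and their classes (dark blue) and partner lists (light blue), with counts beside the bars. The polymerase and clamp class stands at 63.2%, all replication genes at 40.8%, and all genes at 15.3%.

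The E2F factors that control these genes moved in both directions, and the pocket protein genes Rb1 (-0.67), Rbl1 (-0.57) and Rbl2 (-0.98) were lower. Of 17 measured genes of the E2F axis 8 were lower (47.1%) and 3 higher (17.6%). In all genes these shares were 15.3% and 12.4%. The activator E2f1 read 431 and 408 with vehicle and 190 and 170 with PDGF-BB, and E2f2 read 165 and 163, then 44.9 and 39.7. The repressor genes E2f4 and E2f6 were higher, by 0.97 (SE 0.10) and 1.22 (SE 0.14), as was cyclin D1 (Ccnd1), by 0.47, a call lost in all 4 leave-one-out fits. Tfdp2 (-0.87), Ccna2 (-0.62) and Cdk2 (-0.51) were also lower. E2f7, E2f8 and E2f5 were at -0.27, -0.33 and 0.11 and missed the threshold. Cyclin E genes Ccne1 and Ccne2 were at -0.06 and -0.10 and missed the threshold.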

How the data were processed

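Per the labels' protocols, biotin-labelled target made from spin-column RNA was hybridised to Affymetrix arrays. The authors deposited 1 table of probe set intensity values on a linear scale, as its values show. Which software, background correction and scaling they used is not stated in the labels. Of 23764 probe sets, 57 were controls and 23707 entered the test. In GEO's platform annotation, 17279 of these carry 1 gene symbol, 373 carry several and 6055 carry no symbol.

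Intensities were tested as log2(intensity + 16), without rescaling, with limma 3.58.1 (lmFit, eBayes) under R 4.3.3. The tests were two-sided, with Benjamini-Hochberg adjustment over 23707 probe sets and a threshold of 0.05. The offset understates the change of dim genes. There were 2 residual degrees of freedom, to which the prior added 2.40. The procedure was tested on simulated data. Precision is limited by the small number of arrays.

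The genes, the lists and the alternatives were chosen with earlier results of these data known. Values on each array are given, in each class, for up to 5 called genes with the largest change, called genes opposite to most, and the 3 brightest genes that missed the threshold. They are also given for up to 3 called partners per list and direction with the smallest p. Cdt1, Prim2 and 1 probe set of Cdc45 were added after their values were seen. The alternatives were offsets of 1 and 64, array medians, quantile and cyclic loess scaling, a filter on dim probe sets, another choice of probe set, limma-trend, leaving out each array and a replicate block. Lists are described by counts and medians beside those of all genes.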

Additional observations from a re-analysis of the deposited data

How the results depend on the processing

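The median log2 fold change of the replication genes lay between -0.45 and -0.28 in all 14 alternatives. The count of lower genes fell from 20 to 13 with an offset of 1 and ranged from 0 to 16 when 1 array was left out, fits in which 1 group has a single array assumed to vary like the other group. In those fits the count of lower genes among all 12922 fell from 1971 to between 300 and 1631. The count of higher genes, 1, was 0 with an offset of 1 and 0 in each fit without 1 array. It was 2 with an offset of 64, array medians subtracted, quantile normalization, cyclic loess or limma-trend, where Orc2 joined Gmnn, and 3 with the filter on dim probe sets, where Cdt1 joined too. Signs turned only in genes that missed the threshold: Gins4 (0.0146) and Gins1 (0.0052) after cyclic loess, Cdc45 with the mean of its probe sets (-0.23) or without PDGF-BB replicate 2 (leave-one-out range -0.0136 to 0.256), Pcna after quantile normalization (-0.029), Msh6 without PDGF-BB replicate 1 (range -0.0291 to 0.21), and Cdc25a with array medians subtracted (0.0598), quantile normalization (0.0469), cyclic loess (0.10) or without PDGF-BB replicate 2 (range -0.124 to 0.0899). These are the turns among the genes with values on each array, and many alternatives could not turn the 20 lower genes, as given above. The cause of these changes was not tested. Replicate numbers are shared between groups, but nothing says that they pair the samples, and the deviations of same-numbered arrays had a correlation of -0.0978. With a replicate block limma called 15 genes lower and 1 higher.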

Other observations

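Of the replication genes, 8 had several probe sets, and they differed in how well these agreed. All 3 probe sets of Rfc1 had lower means with PDGF-BB, with log2 fold changes of -0.79, -0.92 and -0.41, as did both of Tk1 (-0.41 and -0.32), both of Orc5 (-0.36 and -0.32) and both of Lig1 (-0.61 and -0.14). The second probe set of Cdc25a was at background. The 2 probe sets of Pold3 were at 0.04 and 0.06. The 3 probe sets of Orc6 went from 0.17 to -0.26, and the 4 of Cdc45 from 0.12 to -0.59, in both genes with the dimmer probe sets at the more negative values. For Lig1 the probe set that missed the threshold is of the s type, whose probes can match transcripts of more than 1 gene.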
